A study of Mus musculus with 18 samples.

Results

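C16 and RE, 2 agents given to cKit+ bone marrow cells of wild-type (WT) mice, were compared directly here, over all genes, as the 3 libraries labelled WT and C16 against the 3 labelled WT and RE. These are 6 of the 18 RNA-seq libraries of the series. The series holds WT cells and AE9a cells, each under C16, RE and DMSO with 3 libraries a group. AE9a is known as a truncated form of the RUNX1-RUNX1T1 fusion protein of acute myeloid leukaemia. Both genotypes came from bone marrow cells selected for cKit, the receptor of stem cell factor. The labels give no dose, exposure time, strain or age, and they do not say whether the replicates were separate mice or cultures, so p-values measure the spread between these libraries, which may be technical. The design text speaks of pharmacological inhibition of WDR5 and MLL1 and does not say which agent acts on which protein. DMSO is the usual solvent control, and its 3 WT libraries entered the same fit.

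WDR5 is a core subunit of the MLL and SET1 complexes, which methylate histone H3 at lysine 4, and MLL1, the product of Kmt2a, is one of their catalytic subunits. MLL1 bound to menin maintains HOXA genes and their cofactors in stem and progenitor cells, and these genes are switched off as blood cells mature. WDR5 is also known as a chromatin partner of MYC, which drives genes for ribosome assembly, translation and metabolism. The cKit+ fraction of marrow holds stem cells and committed progenitors of the erythroid, megakaryocytic, mast cell, granulocytic and monocytic lineages, whose marker genes were followed beside these programmes.

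The WT libraries held 16053727 to 20500907 fragments assigned to genes, and 15046 genes passed the filter on low counts. Levels are CPM, fragments scaled to a common library size, after TMM scaling, a scaling that sets aside genes of extreme ratio. Kit was at 112, 131 and 116 CPM under C16, against 216, 85.3 and 190.2 CPM under RE, so the gene of the selection marker was expressed in all 6 libraries and the groups overlapped. Nanog, which the title of the series names, had 0 fragments in all 6. Replicate 2 stood apart under each treatment: the first dimension of a multidimensional scaling, 80.6% of the variation, separated the 3 libraries of replicate 2 from the other 6. C16 replicate 2 lay 0.859 from RE replicate 2 and 1.11 and 1.16 from the other C16 libraries (root mean square log2 difference). The second dimension, 9.61% of the variation, placed the C16 libraries below the RE libraries. Deviations from group means correlated between C16 and RE libraries of the same number in all 3 pairs, and values from a fit with the replicate number as a block, or without replicate 2, stand beside the results they change. In bulk RNA, fewer cells of a type cannot be told apart from less RNA per cell.

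**Figure D1:**
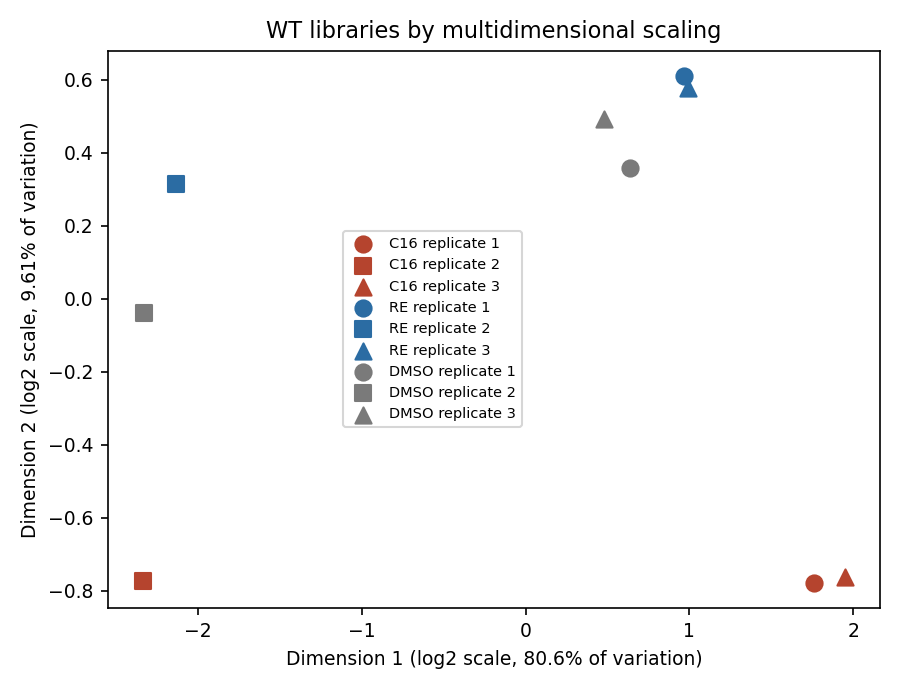
Multidimensional scaling of the 9 WT libraries on log2 expression, with colour for the treatment and shape for the replicate number. The squares of replicate 2 sit apart from the other libraries on the horizontal axis (80.6% of the variation), and C16 lies below RE on the vertical axis (9.61%).

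C16 and RE left many genes at different levels. By edgeR's quasi-likelihood test with Benjamini-Hochberg adjustment, 1789 of 15046 genes (11.9%) differed at an adjusted p under 0.05. They comprised 812 genes higher under C16 (5.4%) and 977 lower (6.49%), and 96 of the higher and 498 of the lower ones differed at least 2-fold. All 1789 had the same direction in each of the 3 pairs of same-numbered libraries. The calls used these same libraries, so this agreement is no separate support. Over all genes tested, 4353 were higher and 4901 lower under C16 in all 3 pairs. The C16 and RE libraries did not overlap in 5256 genes (34.9%), called or not. C16 was above RE in 2610 genes (17.3%) and below in 2646 (17.6%). Where a called gene is said below not to overlap, this too is no separate support. With the replicate block, 5145 genes (34.2%) were called, 2368 higher (15.7%) and 2777 lower (18.5%), and these included all 1789. Without replicate 2, 6737 of 15198 genes were called (44.3%), 3478 higher (22.9%) and 3259 lower (21.4%), and 1778 of the 1789 were called again in the same direction. The count of 1789 was sensitive to single libraries. It was 563 without C16 replicate 1, 522 without C16 replicate 3, 302 without RE replicate 1, 780 without RE replicate 2, 590 without RE replicate 3, 728 without DMSO replicate 1 and 767 without DMSO replicate 3. A filter of at least 1 CPM in 3 libraries called 1302 genes higher and 886 lower, so the split between higher and lower was not fixed. Against DMSO, in the same fit and with the same DMSO libraries, C16 had 467 calls (3.1%), 144 higher (0.957%) and 323 lower (2.15%), and RE had 4 (0.0266%), all lower. These counts rested on single libraries. In edgeR, C16 against DMSO had 0 calls without any 1 of C16 replicates 1 and 3 and DMSO replicate 1 (2360 to 2828 genes at an unadjusted p under 0.05), 2 without DMSO replicate 3, 70 without RE replicate 3, 112 without RE replicate 1, 253 without DMSO replicate 2, 717 without RE replicate 2 and 1329 without C16 replicate 2, and the counts of list members against DMSO given below are subject to the same limit. RE against DMSO had 0 calls without any 1 of RE replicates 1 and 2 and DMSO replicate 1 (450 to 916 genes at an unadjusted p under 0.05), 1 without any 1 of RE replicate 3 and DMSO replicates 2 and 3, 2 without C16 replicate 3 and 6 without C16 replicate 2. With the block C16 had 3646 (24.2%), 1565 higher (10.4%) and 2081 lower (13.8%), and RE had 77 (0.512%), 46 higher (0.306%) and 31 lower (0.206%).

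The HOXA genes gave some of the largest differences. These homeobox transcription factors of stem and progenitor cells are the best-known targets of MLL1 and menin. Hoxa9, a driver of progenitor self-renewal, was at 2.82, 6.78 and 3.05 CPM under C16, 0.561, 0.846 and 0.706 CPM under RE and 3.27, 5.14 and 3.68 CPM under DMSO. Hoxa7 was at 4.87, 7.65 and 4.77 CPM under C16, 1.46, 0.52 and 1.47 CPM under RE and 8.05, 6.54 and 7.67 CPM under DMSO. Hoxa6 was at 1.49, 2.31 and 1.98 CPM under C16, 0.168, 0.26 and 0.217 CPM under RE and 1.86, 1.9 and 1.79 CPM under DMSO, and Hoxa5 at 1.43, 2.21 and 2.09 CPM under C16, 0.505, 0.325 and 0.434 CPM under RE and 1.3, 1.62 and 2.15 CPM under DMSO. For each of these 4 genes all C16 libraries were above all RE libraries, and RE was also below DMSO in every library, whereas C16 and DMSO overlapped. The log2 change was 2.57 ± 0.42 (SE, n = 3 each) for Hoxa9 (edgeR adjusted p = 0.0137), 2.31 (adjusted p = 0.0151) for Hoxa7, 3.13 (adjusted p = 0.00404) for Hoxa6 and 2.16 (adjusted p = 0.0115) for Hoxa5. The calls of Hoxa6 and Hoxa5 held in each of the 9 fits that left out 1 library. Those of Hoxa7 and Hoxa9 were lost without RE replicate 1. Hoxa3 was at 0.974, 0.976 and 1.28 CPM under C16, against 0.449, 0.39 and 0.597 CPM under RE, with 1.15 (adjusted p = 0.0545), 1.16 (adjusted p = 0.0267) with the block and 1.10 (adjusted p = 0.0448) without replicate 2. Of the 11 HOXA genes listed, 7 were tested, 4 were higher and 0 lower, against 5.4% and 6.49% of all genes. The median log2 change was 2.16 against −0.01 over all genes tested. Without RE replicate 1, 2 were called. Hoxa10, not tested for its low counts, had 21 fragments over the C16 libraries and 5 over the RE libraries. Of the HOXB genes 2 were tested and 0 were called.

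Side by side with the solvent, HOXA levels under C16 lay near DMSO and those under RE below it. The log2 change of Hoxa9 was 0.07 (adjusted p = 0.934) for C16 against DMSO and -2.51 (adjusted p = 0.238) for RE against DMSO, or -2.50 (adjusted p = 0.0202) with the block. For Hoxa6 the same values were 0.06 (adjusted p = 0.91) and -3.07 (adjusted p = 0.0223). With the block 3 of 7 HOXA genes were lower for RE against DMSO (all genes: 0.206%). For C16 against DMSO 0 were called with the block (all genes: 24.2%). Hoxa6 is 1 of the 4 genes called for RE against DMSO. The other 3 were Adgrl4, Arhgap32 and Tcf4, and Arhgap32 was named because it completes this count. Adgrl4, an adhesion G protein-coupled receptor known from endothelium, was at 17.3, 19.2 and 17.2 CPM under C16, 1.18, 1.24 and 1.79 CPM under RE and 17.3, 12.4 and 19.6 CPM under DMSO, and C16 against RE gave log2 change 3.66 ± 0.24, adjusted p = 0.00375. Tcf4, an E-protein transcription factor of dendritic and lymphoid development, was at 49.2, 49.9 and 51.7 CPM under C16, 23, 24.2 and 24.6 CPM under RE and 45.3, 43.3 and 43.8 CPM under DMSO (log2 change 1.07 ± 0.07, adjusted p = 0.00375 for C16 against RE). Arhgap32, a GTPase-activating protein, was at 18.1, 16.3 and 14.3 CPM under C16, against 4.88, 4.94 and 4.4 CPM under RE (log2 change 1.78 ± 0.14, adjusted p = 0.00376). In all 3 the RE libraries lay below every C16 and DMSO library, and the calls of Adgrl4, Tcf4 and Arhgap32 held in each of the 9 fits that left out 1 library.

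**Figure D2:**
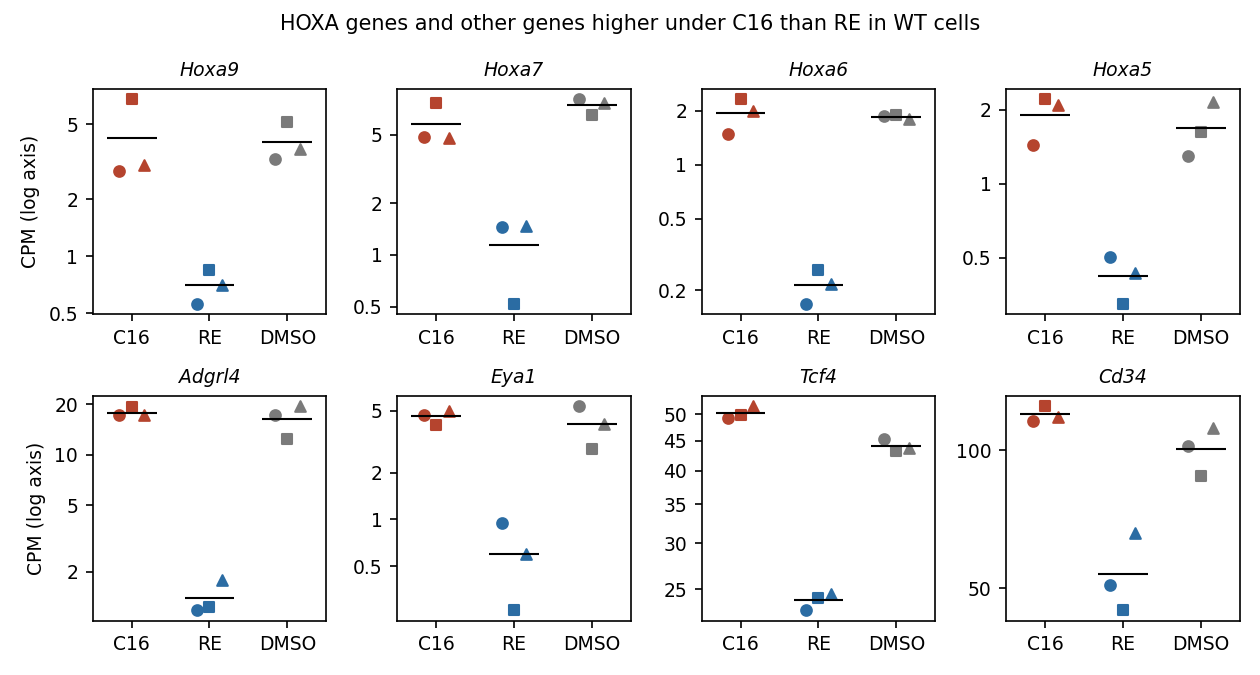
CPM on a log axis in each WT library for 4 HOXA genes, Adgrl4, Eya1, Tcf4 and Cd34, with circles, squares and triangles for replicates 1, 2 and 3 and a line at the mean of 3. In each panel all C16 libraries lie above all RE libraries, as with Hoxa6 at 1.49, 2.31 and 1.98 CPM under C16 and 0.168, 0.26 and 0.217 CPM under RE.

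Among 23 tested cofactors of HOXA proteins and other targets of menin and MLL1, 3 were higher under C16 and 0 lower. Of all genes 5.4% were higher and 6.49% lower. The list's median log2 change was 0.26. Eya1, a transcriptional cofactor with phosphatase activity, was at 4.71, 4.06 and 4.98 CPM under C16, against 0.954, 0.26 and 0.597 CPM under RE (log2 change 2.90 ± 0.44, adjusted p = 0.0115). Lmo2, a bridging factor of stem cell transcription complexes, was at 307, 261 and 330.1 CPM under C16, against 148, 124 and 189 CPM under RE (log2 change 0.96 ± 0.18, adjusted p = 0.0202). Sox4, a transcription factor of progenitors named to complete the count, was at 39.5, 44.4 and 42.4 CPM under C16, against 26.3, 18.7 and 28.7 CPM under RE (log2 change 0.78 ± 0.17, adjusted p = 0.0299). None of these 3 overlapped between C16 and RE, as was so for 34.9% of all genes. The call of Eya1 held in each of the 9 fits that left out 1 library. That of Lmo2 was lost without any 1 of C16 replicates 1 and 3 and RE replicate 1. That of Sox4 was lost without any 1 of C16 replicates 1 and 3, RE replicates 1 and 2 and DMSO replicates 1 and 3. Mecom, a regulator of stem cell maintenance, and Mef2c, a transcription factor of lymphoid and myeloid progenitors, missed the threshold without the block, with log2 changes of 1.96 (adjusted p = 0.0903) and 1.46 (adjusted p = 0.221). They had 2.09 (adjusted p = 0.00553) and 1.40 (adjusted p = 0.00234) with the block, and 1.70 (adjusted p = 0.0004) and 1.49 (adjusted p = 2.95e-06) without replicate 2. Mef2c was at 293, 62.2 and 319 CPM under C16, against 105, 27.1 and 113 CPM under RE, lowest in replicate 2 under each agent. Meis1, the DNA-binding partner of HOXA9, was at 88.5, 23.5 and 97.3 CPM under C16, against 58.5, 12.7 and 67.5 CPM under RE, with 0.59 (adjusted p = 0.631) without the block and 0.65 (adjusted p = 0.0127) with it. Flt3, the receptor of FLT3 ligand, was at 11.5, 13.8 and 9.85 CPM under C16, against 17.6, 3.64 and 8.09 CPM under RE, with 0.26 (adjusted p = 0.77) and, without replicate 2, -0.26 (adjusted p = 0.497).

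Few genes of the complexes themselves passed the test. Wdr5 was at 129, 173 and 123 CPM under C16, against 133, 167 and 147 CPM under RE, and the groups overlapped (log2 change -0.07 ± 0.15, adjusted p = 0.779). Kmt2a, which encodes MLL1, had log2 change -0.13 ± 0.11, adjusted p = 0.473, and Men1, which encodes menin, had log2 change -0.12 ± 0.22, adjusted p = 0.758. Of 24 subunits and partners of these complexes, 1 was higher and 0 lower (all genes: 5.4% higher, 6.49% lower). That one was Ash2l, a core subunit beside WDR5, at 90.6, 109 and 86 CPM under C16, against 70, 68.1 and 72.8 CPM under RE (log2 change 0.44 ± 0.11, adjusted p = 0.0389). The call of Ash2l was lost without any 1 of C16 replicates 1 and 3, RE replicates 1, 2 and 3 and DMSO replicates 1, 2 and 3. With the block 6 were higher and 2 lower (all genes: 15.7% higher, 18.5% lower).

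Genes for ribosome assembly were higher under C16 than under RE as a group. Of 35 tested, 29 were higher and 0 lower, against 5.4% of all genes higher, and the median log2 change was 0.77. With the block all 35 were higher, against 15.7% of all genes. All 35 were also higher in each of the 3 pairs, against 4353 of 15046 genes. The pair medians were 0.53, 1.29 and 0.45 in replicates 1, 2 and 3. Nop56, a core protein of box C/D small nucleolar ribonucleoproteins, was at 268, 366 and 273 CPM under C16, 169.7, 144 and 182 CPM under RE and 191, 182 and 208 CPM under DMSO (log2 change 0.87 ± 0.15, adjusted p = 0.015 for C16 against RE). Dkc1, the pseudouridine synthase of box H/ACA particles, was at 181, 236 and 169 CPM under C16, against 109, 87.3 and 113 CPM under RE (log2 change 0.92 ± 0.15, adjusted p = 0.0144). Nhp2, a partner of dyskerin in these particles, and Nolc1, a nucleolar chaperone, had log2 changes of 0.90 (adjusted p = 0.0119) and 0.97 (adjusted p = 0.0166). In each of these 4 genes C16 replicate 2 was the highest of the 6 libraries and RE replicate 2 the lowest. The calls of Nhp2, Nop56, Dkc1 and Nolc1 were lost without RE replicate 1. The count of 29 fell to 0 without RE replicate 1, 8 without any 1 of RE replicates 2 and 3, 10 without DMSO replicate 1, 11 without DMSO replicate 3, 12 without C16 replicate 1 and 15 without C16 replicate 3. Against DMSO, the list's median log2 change was 0.58 for C16, with 1 member higher, or 23 with the block (all genes: 0.957% and 10.4%). For RE the median was -0.18, with 0 called. Only 0.0266% of all genes were called for RE, so this 0 does not set the list apart.

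MYC itself missed the threshold in the fit without the block. Myc was at 167, 278 and 159 CPM under C16, 105, 144 and 118 CPM under RE and 147, 166 and 147 CPM under DMSO, without overlap between C16 and RE, and its log2 change was 0.72 (adjusted p = 0.0699), 0.69 (adjusted p = 0.00681) with the block and 0.55 (adjusted p = 0.000214) without replicate 2. Of 26 genes of the MYC network and its targets, 15 were higher and 1 lower (all genes: 5.4% higher, 6.49% lower). The median log2 change was 0.64. With the block 21 of the 26 were higher and 2 lower (all genes: 15.7% higher, 18.5% lower). Mga, a MAX-binding repressor, was at 192, 189 and 183 CPM under C16, against 135, 125 and 123 CPM under RE (log2 change 0.56 ± 0.07, adjusted p = 0.00724). Max, the obligate partner of MYC, was at 115, 127 and 111 CPM under C16, against 87.6, 97.6 and 84.5 CPM under RE (log2 change 0.39 ± 0.09, adjusted p = 0.0294). Nme1, a nucleoside diphosphate kinase, and Slc19a1, the folate carrier, had 0.74 (adjusted p = 0.0173) and 0.99 (adjusted p = 0.0337). The member that was lower was Mxd1, which competes with MYC for MAX, named to complete the count. It was at 111, 79.6 and 96.1 CPM under C16, against 157, 348 and 177 CPM under RE (log2 change -1.25 ± 0.29, adjusted p = 0.033), highest in RE replicate 2. The call of Mga held in each of the 9 fits that left out 1 library. That of Nme1 was lost without any 1 of C16 replicates 1 and 3 and RE replicate 1. That of Max was lost without any 1 of C16 replicates 1 and 3, RE replicates 1 and 3 and DMSO replicates 1 and 3. That of Mxd1 was lost without any 1 of C16 replicates 1, 2 and 3, RE replicate 3 and DMSO replicates 1 and 3. That of Slc19a1 was lost without any 1 of C16 replicates 1 and 3, RE replicates 1, 2 and 3 and DMSO replicates 1 and 3. The 15 members higher became 1 without RE replicate 1, 4 without RE replicate 2, 5 without any 1 of RE replicate 3 and DMSO replicates 1 and 3, 7 without C16 replicate 3 and 8 without C16 replicate 1.

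MYC and MAX bind the E-box CACGTG, so promoters were searched for these letters, which read the same on both strands. The windows hold 250 bases before and 50 after the start of a gene, from RefSeq on GRCm38.p6, and 21 of the 26 list genes had one. The letters occurred in 10 of the 21 (47.6%), against 8.09% of 27025 genes with a window of the same length. The list was written from known MYC genes, so this share describes the list and not the agents. The letters occurred in 7 of 12 members that were higher under C16 and in 3 of 9 that were not called higher. Among ribosome assembly genes they occurred in 5 of 30 windows (16.7%). Max and Cdk4 are shown because they carry the letters once and 4 times, with CACGTG in capitals. Cdk4, the cyclin D-dependent kinase, was chosen for its window, and was at 277, 394 and 278 CPM under C16, against 212, 190.1 and 220.4 CPM under RE (log2 change 0.61 ± 0.15, adjusted p = 0.0367). The call of Cdk4 was lost without any 1 of C16 replicates 1 and 3, RE replicates 1, 2 and 3 and DMSO replicates 1, 2 and 3. The Max window is chr12:76962199-76962498 on the minus strand, and the Cdk4 window chr10:127063285-127063584 on the plus strand.
Max: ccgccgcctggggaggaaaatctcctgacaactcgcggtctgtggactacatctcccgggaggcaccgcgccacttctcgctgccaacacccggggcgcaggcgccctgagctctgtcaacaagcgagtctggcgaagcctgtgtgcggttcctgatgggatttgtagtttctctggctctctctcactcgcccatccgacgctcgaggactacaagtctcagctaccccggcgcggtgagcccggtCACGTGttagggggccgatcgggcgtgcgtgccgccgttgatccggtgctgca
Cdk4: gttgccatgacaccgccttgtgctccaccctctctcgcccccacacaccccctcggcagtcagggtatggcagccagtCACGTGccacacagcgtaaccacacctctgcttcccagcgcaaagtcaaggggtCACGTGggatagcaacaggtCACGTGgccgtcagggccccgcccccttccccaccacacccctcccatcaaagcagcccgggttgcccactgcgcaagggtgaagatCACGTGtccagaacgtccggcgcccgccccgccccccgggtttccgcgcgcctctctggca

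The ribosomal proteins did not follow the assembly genes. Of 79 tested, 2 were higher and 10 lower under C16 (all genes: 5.4% higher, 6.49% lower), with a median log2 change of -0.14. With the block 7 were higher and 23 lower (all genes: 15.7% and 18.5%). Without replicate 2, 9 were higher and 42 lower (all genes: 22.9% and 21.4%). Rpl37a, of the large subunit, was at 221, 264 and 217 CPM under C16, against 376, 379.6 and 363 CPM under RE (log2 change -0.67 ± 0.10, adjusted p = 0.00992), and Rpl23 had -0.47 (adjusted p = 0.0223). The 2 higher ones were Rpl21, at 129, 139 and 129.7 CPM under C16, against 80.6, 95.8 and 77.7 CPM under RE (log2 change 0.64 ± 0.10, adjusted p = 0.0129), and Rps27a, the ubiquitin fusion protein, with 0.76 (adjusted p = 0.0248). The call of Rpl37a held in each of the 9 fits that left out 1 library. That of Rpl21 was lost without RE replicate 1. That of Rpl23 was lost without any 1 of C16 replicates 1 and 3 and RE replicates 1 and 3. That of Rps27a was lost without any 1 of C16 replicate 3, RE replicates 1, 2 and 3 and DMSO replicate 1. Ribosomal protein genes have many processed copies, and fragments may be split among them. The 10 lower members became 1 without any 1 of C16 replicates 1 and 3 and RE replicates 1 and 3, 2 without any 1 of DMSO replicates 1 and 3, 3 without RE replicate 2, 6 without DMSO replicate 2 and 31 without C16 replicate 2. The pair medians were -0.22, 0.06 and -0.22, so replicate 2 went against the other pairs.

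Of 36 subunits of oxidative phosphorylation, 7 were higher under C16 and 1 lower (all genes: 5.4% higher, 6.49% lower). With the block 17 were higher and 1 lower (all genes: 15.7% higher, 18.5% lower). Atp5f1b, the catalytic beta subunit of ATP synthase, was at 1262, 1707 and 1268 CPM under C16, against 880.0, 940.0 and 946 CPM under RE (log2 change 0.62 ± 0.14, adjusted p = 0.0297), and Atp5mc1, of its membrane ring, had 0.76 (adjusted p = 0.0241). Both were higher in every C16 library than in any RE library. The lower one, named to complete the count, was Ndufa1 of complex I, at 24.7, 23 and 25.4 CPM under C16, against 29.3, 30.2 and 31.2 CPM under RE (log2 change -0.31 ± 0.08, adjusted p = 0.0485). The call of Atp5mc1 was lost without any 1 of C16 replicate 3, RE replicates 1, 2 and 3 and DMSO replicate 1. That of Atp5f1b was lost without any 1 of C16 replicates 1 and 3, RE replicates 1, 2 and 3 and DMSO replicates 1 and 3. That of Ndufa1 was lost without any 1 of the 9 libraries. The 7 higher members became 0 without any 1 of C16 replicate 3, RE replicates 1, 2 and 3 and DMSO replicate 1, 1 without any 1 of C16 replicate 1 and DMSO replicate 3 and 2 without DMSO replicate 2.

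Few cell cycle genes passed the test between the agents. Of 38 DNA replication genes 1 was higher, and of 37 mitosis genes 0 were called (all genes: 5.4% higher, 6.49% lower). The median log2 changes were 0.35 and 0.22. With the block 21 replication genes were higher and 0 lower, and 11 mitosis genes higher and 1 lower. Of all genes 15.7% were higher and 18.5% lower with the block. The called gene was Pola1, the catalytic subunit of DNA polymerase alpha, at 117, 149.5 and 113 CPM under C16, against 75.8, 83.7 and 82.1 CPM under RE (log2 change 0.65 ± 0.13, adjusted p = 0.0218). The call of Pola1 was lost without any 1 of C16 replicate 1 and RE replicates 1, 2 and 3. Mcm6, of the replicative helicase, was at 343, 526 and 333 CPM under C16, against 234, 294 and 246 CPM under RE (0.63 (adjusted p = 0.0847), and 0.61 (adjusted p = 0.0032) with the block). Top2a, the topoisomerase of dividing cells, was at 558, 889 and 509 CPM under C16, against 428, 716 and 445 CPM under RE (0.30 (adjusted p = 0.554), and 0.30 (adjusted p = 0.0252) with the block), and its groups overlapped. Ccnb1, the mitotic cyclin, had 0.41 (adjusted p = 0.459) and, with the block, 0.36 (adjusted p = 0.0266).

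Eosinophil granule genes had the lowest median change of the gene lists followed here. Epx, eosinophil peroxidase, was at 6.05, 11.8 and 8.14 CPM under C16, 119, 138 and 126 CPM under RE and 132, 146 and 328 CPM under DMSO. Prg2, the granule major basic protein, was at 26, 28.2 and 21.7 CPM under C16, 216, 264 and 219 CPM under RE and 174, 176 and 416 CPM under DMSO. Prg3, its homologue, was at 1.64, 3.13 and 1.39 CPM under C16, against 10.8, 21.7 and 15 CPM under RE. All C16 libraries were far below all RE libraries, and RE and DMSO overlapped. Epx had log2 change -3.88 ± 0.41, adjusted p = 0.0049, Prg2 log2 change -3.20 ± 0.36, adjusted p = 0.00533, and Prg3 log2 change -2.94 ± 0.46, adjusted p = 0.0122. The other called members, named to complete the count, were Alox15, a lipoxygenase (log2 change -1.94 ± 0.46, adjusted p = 0.0362), and Ear1, an eosinophil ribonuclease, with 4 fragments over the C16 libraries and 118 over the RE libraries (adjusted p = 0.0276). The calls of Epx, Prg2 and Prg3 held in each of the 9 fits that left out 1 library. That of Ear1 was lost without any 1 of C16 replicates 1 and 3 and RE replicates 1 and 2. That of Alox15 was lost without any 1 of C16 replicates 1, 2 and 3, RE replicates 1, 2 and 3 and DMSO replicate 1. Of 10 markers tested, 5 were lower and 0 higher (all genes: 6.49% lower, 5.4% higher). All 10 were lower with the block and also without replicate 2, against 18.5% and 21.4% of all genes. The 5 became 3 without any 1 of C16 replicate 3 and RE replicate 1. The summed level of the list was 68, 99.7 and 53.2 CPM under C16, against 425, 620.3 and 436 CPM under RE, and the median log2 change -2.39. Against DMSO the list's median was -2.14 under C16, with 3 members lower, or 8 with the block (all genes: 2.15% and 13.8%). Under RE the median was 0.25, with 0 called. Only 0.0266% of all genes were called under RE, so this 0 does not set the list apart.

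**Figure D3:**
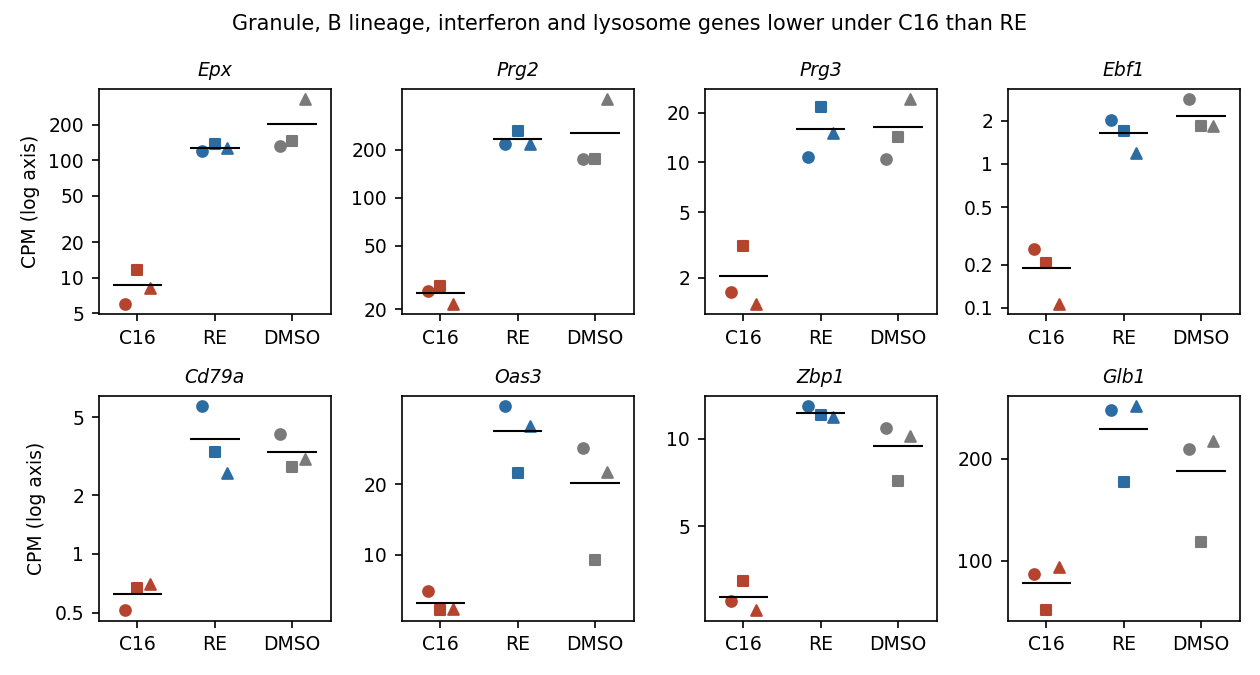
CPM on a log axis in each WT library for eosinophil (Epx, Prg2, Prg3), B lineage (Ebf1, Cd79a), interferon (Oas3, Zbp1) and lysosome (Glb1) genes, with circles, squares and triangles for replicates 1, 2 and 3 and a line at the mean of 3. In each panel all C16 libraries lie below all RE libraries, as with Epx at 6.05, 11.8 and 8.14 CPM under C16 and 119, 138 and 126 CPM under RE.

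Interferon-stimulated genes were lower under C16 as well. Of 29 tested, 11 were lower and 0 higher, against 6.49% of all genes lower, with a median log2 change of -0.96. With the block 22 were lower and 0 higher (all genes: 18.5% lower), and the pair medians were -1.13, -0.66 and -0.90. Zbp1, a sensor of Z-form nucleic acids, was at 2.77, 3.24 and 2.57 CPM under C16, 13, 12.1 and 11.8 CPM under RE and 10.9, 7.15 and 10.2 CPM under DMSO (log2 change -2.10 ± 0.20, adjusted p = 0.00404 for C16 against RE). Oas3, which makes the 2-5A messenger that activates RNase L, was at 6.97, 5.75 and 5.84 CPM under C16, against 43.5, 22.4 and 35.8 CPM under RE (log2 change -2.45 ± 0.41, adjusted p = 0.0151). Its relative Oas2 had -1.83 (adjusted p = 0.0259), and Rigi, the cytosolic RNA sensor, was at 38.3, 27.1 and 38.9 CPM under C16, against 89, 67.2 and 80.2 CPM under RE (log2 change -1.18 ± 0.19, adjusted p = 0.0124). In each of these 4 genes no C16 library reached the lowest RE library. The call of Zbp1 held in each of the 9 fits that left out 1 library. That of Rigi was lost without RE replicate 1. That of Oas3 was lost without any 1 of C16 replicate 3 and RE replicate 1. That of Oas2 was lost without any 1 of C16 replicates 1 and 3, RE replicates 1 and 3 and DMSO replicate 3. The count of 11 became 2 without RE replicate 1, 3 without C16 replicate 3, 4 without C16 replicate 1, 5 without any 1 of RE replicate 3 and DMSO replicate 3 and 7 without DMSO replicate 1. Against DMSO the median was -0.91 for C16, with 4 members lower, or 20 with the block (all genes: 2.15% and 13.8%). For RE the median was 0.26, with 0 called. Only 0.0266% of all genes were called for RE, so this 0 does not set the list apart.

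The interferon-activated factor that holds STAT2 and IRF9 binds the interferon-stimulated response element, searched here on both strands as the letters GAAA, NN and GAAA in a row, with N for any base. Of the 30 listed genes 21 had a window, and 12 of these held the letters (57.1%), against 3.99% of 27025 genes with a window. This share too describes the list and not the agents. The letters occurred in 4 of 6 members that were lower under C16 and in 7 of 14 that were not called. In the list 1 gene with a window was not tested. The windows of Oas3 and Stat2 are shown, with the match in capitals, as those of an effector and of a subunit of the factor. Stat2 was chosen for its window. It was at 47.3, 53.6 and 51.1 CPM under C16, against 84.6, 90 and 74.9 CPM under RE (log2 change -0.72 ± 0.10, adjusted p = 0.0093), and the call of Stat2 held in each of the 9 fits that left out 1 library. The Oas3 window is chr5:120777610-120777909 on the minus strand, with the match on the gene's strand, and the Stat2 window chr10:128270248-128270547 on the plus strand, with the match on the opposite strand. No match says only that these letters are not in the window.
Oas3: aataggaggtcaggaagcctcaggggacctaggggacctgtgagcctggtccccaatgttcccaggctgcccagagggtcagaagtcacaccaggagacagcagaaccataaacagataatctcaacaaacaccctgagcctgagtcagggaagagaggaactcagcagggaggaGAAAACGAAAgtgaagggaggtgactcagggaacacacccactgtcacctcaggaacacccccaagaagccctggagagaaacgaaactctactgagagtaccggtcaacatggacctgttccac
Stat2: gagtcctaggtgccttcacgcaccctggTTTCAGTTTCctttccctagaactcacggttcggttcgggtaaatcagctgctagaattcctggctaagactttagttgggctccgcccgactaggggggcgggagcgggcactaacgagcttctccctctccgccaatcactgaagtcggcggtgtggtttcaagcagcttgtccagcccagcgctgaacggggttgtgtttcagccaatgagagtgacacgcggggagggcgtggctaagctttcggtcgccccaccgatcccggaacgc

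Lysosomal genes were moderately lower under C16. Of 25 tested, 12 were lower and 0 higher (all genes: 6.49% lower, 5.4% higher), with a median log2 change of -0.43. With the block 14 were lower, against 18.5% of all genes. Glb1, the beta-galactosidase, was at 91.3, 71.4 and 96.2 CPM under C16, against 278, 171 and 286 CPM under RE (log2 change -1.50 ± 0.30, adjusted p = 0.022), and Ctsd, the aspartic protease cathepsin D, had -0.81 (adjusted p = 0.0439). Neither gene overlapped between the agents. The call of Glb1 was lost without any 1 of C16 replicates 1 and 3 and RE replicates 1 and 3. That of Ctsd was lost without any 1 of C16 replicates 1, 2 and 3, RE replicates 1, 2 and 3 and DMSO replicates 1 and 3. The 12 became 4 without RE replicate 1, 5 without any 1 of C16 replicates 1 and 3 and 7 without RE replicate 3. Against DMSO 8 members were lower under C16, or 18 with the block (all genes: 2.15% and 13.8%). Under RE 0 were called in either fit. Only 0.0266% of all genes were called there, or 0.512% with the block, so this 0 does not set the list apart.

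Of 26 genes of NF-kB signalling and inflammation, 6 were lower and 0 higher (all genes: 6.49% lower, 5.4% higher). With the block 14 were lower, against 18.5% of all genes. Tlr2, a receptor of bacterial lipoproteins, was at 34.9, 64.3 and 31.3 CPM under C16, against 133, 126 and 132 CPM under RE (log2 change -1.58 ± 0.26, adjusted p = 0.0144). Nfkbia and Nfkbie, inhibitors of NF-kB that are themselves its targets, had -0.98 (adjusted p = 0.0429) and -0.98 (adjusted p = 0.0228). Traf1, a signalling adaptor, was at 9.12, 3.08 and 8.83 CPM under C16, against 47.3, 15.8 and 32.3 CPM under RE, and had -2.18 (adjusted p = 0.051), -2.19 (adjusted p = 0.000429) with the block and -2.14 (adjusted p = 3.6e-05) without replicate 2. The call of Tlr2 was lost without RE replicate 1. That of Nfkbie was lost without any 1 of C16 replicates 1 and 3 and RE replicates 1 and 3. That of Nfkbia was lost without any 1 of C16 replicates 1, 2 and 3, RE replicates 1 and 2 and DMSO replicates 1, 2 and 3. The 6 became 0 without RE replicate 1, 1 without any 1 of C16 replicates 1 and 3 and 3 without any 1 of RE replicate 2 and DMSO replicates 1 and 3. In the BCL2 family of apoptosis regulators 3 of 13 were lower and 0 higher (all genes: 6.49% lower, 5.4% higher). They were the BH3-only killers Bmf, at 5.59, 5.55 and 4.23 CPM under C16, against 14.4, 31.9 and 12.7 CPM under RE (log2 change -1.94 ± 0.40, adjusted p = 0.024), and Bcl2l11 (log2 change -0.72 ± 0.19, adjusted p = 0.0456), and the survival protein Bcl2l2 (log2 change -0.59 ± 0.10, adjusted p = 0.0157). The calls of Bmf and Bcl2l2 were lost without any 1 of C16 replicates 1 and 3 and RE replicate 1. That of Bcl2l11 was lost without any 1 of C16 replicates 1 and 3, RE replicates 1, 2 and 3 and DMSO replicates 1, 2 and 3.

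Some markers of mature myeloid cells were lower under C16, and their levels moved with replicate 2. Of 21 late neutrophil markers 5 were lower and 0 higher (all genes: 6.49% lower, 5.4% higher). With the block 9 of these markers were lower (all genes: 18.5% lower). Their summed level was 4951, 6246 and 3533 CPM under C16, against 5618, 30066 and 4838 CPM under RE, with RE replicate 2 far above the rest. Cxcr2, the chemokine receptor of neutrophil release, was at 70.1, 54 and 55.8 CPM under C16, against 158, 176 and 159 CPM under RE (log2 change -1.46 ± 0.17, adjusted p = 0.00626). Padi4, which citrullinates histones in neutrophils, was at 77, 80.8 and 60.4 CPM under C16, against 114, 268 and 125 CPM under RE (log2 change -1.21 ± 0.32, adjusted p = 0.0477), Fpr1, the formyl peptide receptor, had -1.37 (adjusted p = 0.0329), and Ly6g, named to complete the count, had -1.81 (adjusted p = 0.0291). Stfa2l1, a stefin, was at 1.95, 3.24 and 1.23 CPM under C16, against 10.3, 106 and 8.47 CPM under RE (log2 change -4.27 ± 1.12, adjusted p = 0.0469), and without replicate 2 its log2 change was -2.55 (adjusted p = 0.000105). The call of Cxcr2 held in each of the 9 fits that left out 1 library. That of Fpr1 was lost without any 1 of C16 replicate 3, RE replicates 1, 2 and 3 and DMSO replicates 1 and 3. That of Ly6g was lost without any 1 of C16 replicates 1, 2 and 3, RE replicate 1 and DMSO replicates 1 and 3. Those of Padi4 and Stfa2l1 were lost without any 1 of the 9 libraries. The 5 became 1 without any 1 of C16 replicate 3, RE replicate 1 and DMSO replicates 1 and 3, 2 without any 1 of C16 replicates 1 and 2 and RE replicate 2 and 3 without any 1 of RE replicate 3 and DMSO replicate 2. The pair medians of the list were -0.34, -2.19 and -0.55. Stefin genes have near-identical copies, and their counts are uncertain.

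Of 26 monocyte and macrophage markers 5 were lower and 0 higher (all genes: 6.49% lower, 5.4% higher). With the block 11 were lower and 1 higher (all genes: 18.5% lower, 15.7% higher). Adgre1, the F4/80 antigen, was at 47.5, 70.1 and 43.4 CPM under C16, against 207, 171 and 200.1 CPM under RE (log2 change -1.85 ± 0.27, adjusted p = 0.0102). Cx3cr1, the fractalkine receptor, was at 1.95, 2.36 and 2.03 CPM under C16, against 5.22, 5.27 and 3.85 CPM under RE (log2 change -1.17 ± 0.22, adjusted p = 0.0202). Cd14, the lipopolysaccharide co-receptor, had -1.98 (adjusted p = 0.0498), and the remaining 2, named to complete the count, were Mpeg1, perforin-2 (-0.83 (adjusted p = 0.0307)), and Cd68, a lysosomal glycoprotein (-0.66 (adjusted p = 0.0429)). The call of Adgre1 held in each of the 9 fits that left out 1 library. That of Cx3cr1 was lost without any 1 of C16 replicates 1 and 3 and RE replicates 1 and 2. That of Mpeg1 was lost without any 1 of C16 replicates 1, 2 and 3, RE replicates 1 and 2 and DMSO replicate 3. That of Cd14 was lost without any 1 of C16 replicates 1 and 3, RE replicates 1, 2 and 3 and DMSO replicates 1, 2 and 3. That of Cd68 was lost without any 1 of the 9 libraries. The 5 became 1 without any 1 of C16 replicates 1 and 3 and RE replicates 1 and 2, 2 without DMSO replicate 3 and 3 without any 1 of RE replicate 3 and DMSO replicates 1 and 2. The summed level was 2692, 3633 and 2622 CPM under C16, against 3380, 9128 and 3531 CPM under RE.

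B lineage genes were among those lower under C16. Of 14 tested, 7 were lower and 0 higher (all genes: 6.49% lower, 5.4% higher), with a median log2 change of -1.93. With the block 8 were lower, against 18.5% of all genes. Ebf1, the factor that specifies the lineage, was at 0.256, 0.205 and 0.107 CPM under C16, 2.02, 1.69 and 1.19 CPM under RE and 2.82, 1.84 and 1.84 CPM under DMSO (log2 change -3.06 ± 0.40, adjusted p = 0.00848 for C16 against RE). Cd79a, a signalling chain of the B cell receptor, was at 0.512, 0.668 and 0.696 CPM under C16, against 5.72, 3.32 and 2.61 CPM under RE (log2 change -2.62 ± 0.36, adjusted p = 0.00909). Igll1, of the surrogate light chain, was at 0.359, 0.668 and 0.375 CPM under C16, against 2.19, 2.93 and 2.55 CPM under RE (log2 change -2.43 ± 0.31, adjusted p = 0.00758), and Pax5, which maintains B cell identity, had -2.46 (adjusted p = 0.0173). The calls of Ebf1, Cd79a and Igll1 held in each of the 9 fits that left out 1 library. That of Pax5 was lost without any 1 of C16 replicates 1 and 3 and RE replicate 1. The 7 became 3 without any 1 of C16 replicates 1 and 3 and RE replicate 1 and 4 without DMSO replicate 1. The summed level of the list did not follow these genes, at 182, 265 and 179 CPM under C16, against 277, 255 and 184 CPM under RE. Most of it came from Ighm, the mu heavy chain, at 124, 226 and 124 CPM under C16, against 168, 171 and 109.6 CPM under RE, which was not called and is named for its share. Against DMSO 6 members were lower under C16, or 9 with the block (all genes: 2.15% and 13.8%). Under RE 0 were called in either fit. Only 0.0266% of all genes were called there, or 0.512% with the block, so this 0 does not set the list apart.

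**Figure D4:**
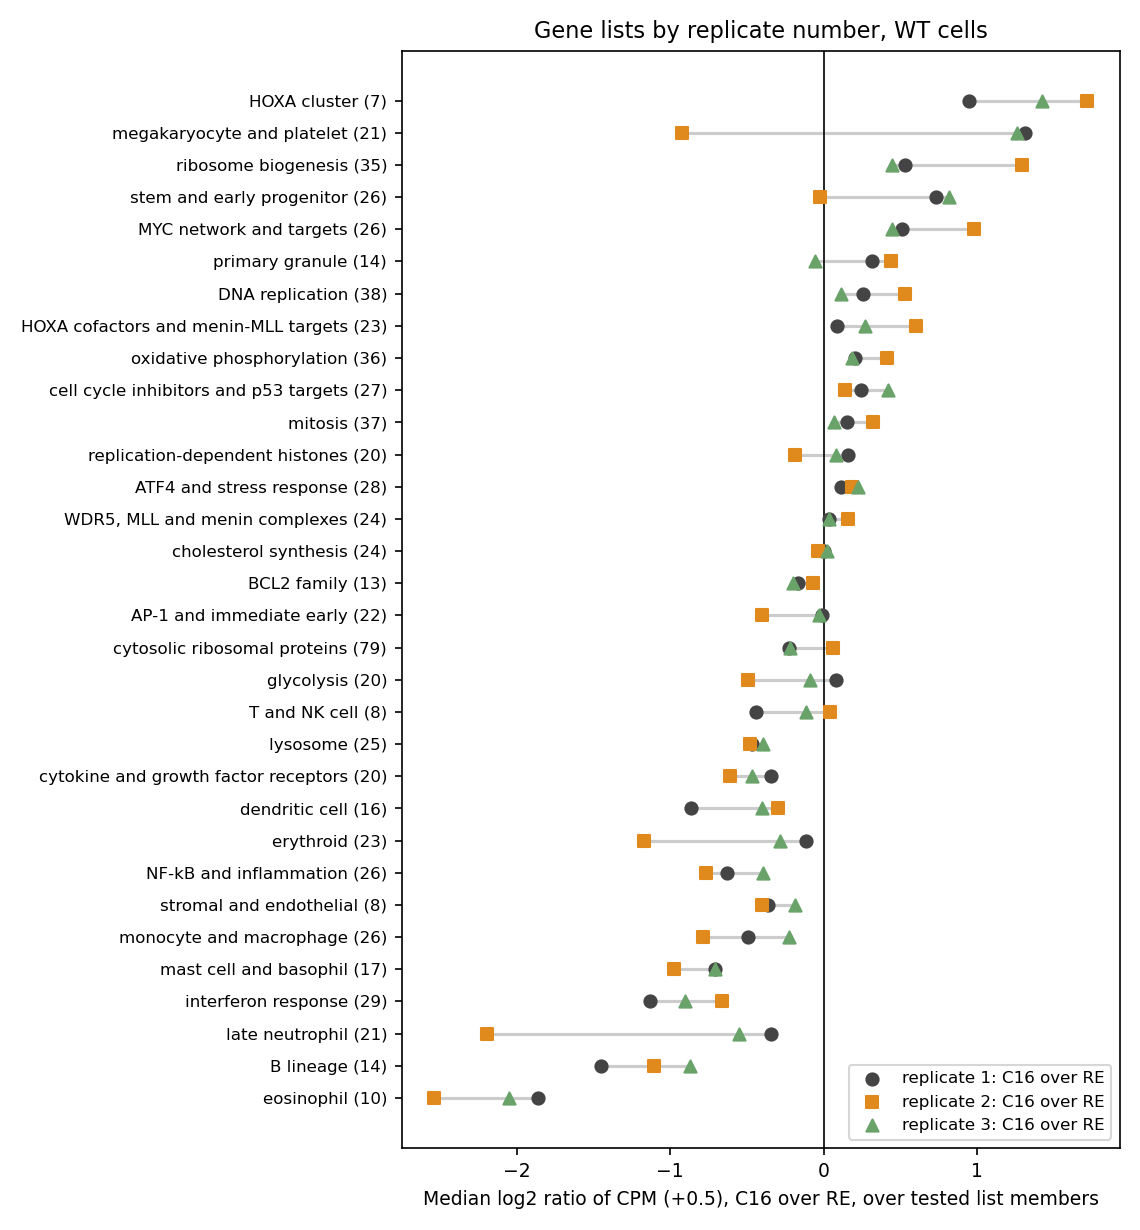
Median log2 ratio of CPM (with 0.5 CPM added to each level), C16 over RE, over the tested members of each gene list, given for each pair of same-numbered WT libraries, with the number of tested members in brackets. All 3 pairs lie on the same side of 0 for HOXA, ribosome assembly, interferon, lysosome, B lineage and eosinophil genes. Many other lists share this, such as mast cell (-0.71, -0.98 and -0.71) and erythroid genes (-0.11, -1.17 and -0.28). The megakaryocyte list has 1.31, -0.92 and 1.26 in replicates 1, 2 and 3.

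Values of mast cell, red cell and platelet genes moved with replicate 2, whose part in them was not tested. Of 17 mast cell and basophil markers 1 was lower and 0 higher, near the share of all genes (6.49% lower, 5.4% higher). With the block 11 were lower and 1 higher (all genes: 18.5% lower, 15.7% higher). Cpa3, the granule carboxypeptidase, was at 899, 351 and 884 CPM under C16, against 2234, 1114 and 2214 CPM under RE (-1.38 (adjusted p = 0.0908), and -1.43 (adjusted p = 0.000531) with the block). Il1rl1, the IL-33 receptor, had -1.32 (adjusted p = 0.0993), and -1.36 (adjusted p = 0.00048) with the block. Hdc, which makes histamine, was at 345, 167 and 307 CPM under C16, against 540.5, 418 and 578 CPM under RE (-0.91 (adjusted p = 0.126), and -0.97 (adjusted p = 0.00376) with the block). The called gene was Mitf, a transcription factor of mast cells, at 12.7, 18.3 and 12.3 CPM under C16, against 28.1, 36.6 and 26.6 CPM under RE (log2 change -1.08 ± 0.19, adjusted p = 0.0166), named to complete the count. The call of Mitf was lost without any 1 of C16 replicates 1 and 3 and RE replicate 1. The summed level was 6041, 3763 and 5734 CPM under C16, against 9508, 6244 and 9489 CPM under RE, lower under C16 than RE within each replicate number.

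Of 23 erythroid markers 2 were higher and 2 lower, near the share of all genes (5.4% higher, 6.49% lower). With the block 3 were higher and 7 lower (all genes: 15.7% higher, 18.5% lower). The higher ones included Tfrc, the transferrin receptor, at 649.6, 779 and 628 CPM under C16, against 356, 535 and 402 CPM under RE (log2 change 0.67 ± 0.17, adjusted p = 0.0411). The lower ones, named to complete the count, were Rhag, of the Rh complex, with 14 fragments over the C16 libraries and 72 over the RE libraries (-2.52 (adjusted p = 0.023)), and Ank1, of the red cell skeleton (-1.76 (adjusted p = 0.0261)). The call of Rhag was lost without any 1 of C16 replicate 3, RE replicates 1 and 2 and DMSO replicate 1. That of Ank1 was lost without any 1 of C16 replicate 3, RE replicates 1, 2 and 3 and DMSO replicate 1. That of Tfrc was lost without any 1 of C16 replicates 1, 2 and 3, RE replicates 1 and 3 and DMSO replicates 1, 2 and 3. The globin genes Hbb-bt and Hba-a1 were lower under C16 within each number. Hbb-bt was at 8.15, 1.23 and 8.67 CPM under C16, against 77.9, 13.7 and 78.6 CPM under RE (-3.24 (adjusted p = 0.0634), and -3.25 (adjusted p = 8.38e-05) with the block). Hba-a1 had -3.48 (adjusted p = 0.0608), and -3.52 (adjusted p = 0.000429) with the block. Globin genes have near-identical copies, and their counts are uncertain. Car1, an early erythroid carbonic anhydrase, was at 1.54, 0.873 and 1.12 CPM under C16, against 0.393, 0.325 and 0.489 CPM under RE (1.53 (adjusted p = 0.145), 1.56 (adjusted p = 0.0344) with the block and 1.58 (adjusted p = 0.00789) without replicate 2).

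Of 21 megakaryocyte and platelet markers 0 were called. With the block 6 were higher, against 15.7% of all genes, and 20 were without replicate 2, against 22.9%. Gp1bb, of the von Willebrand factor receptor, was at 126, 0.976 and 161 CPM under C16, against 32.3, 2.08 and 39.4 CPM under RE, so that replicate 2 held little of its RNA under either agent. Its log2 change was 1.97 (adjusted p = 0.452), 1.61 (adjusted p = 0.0286) with the block and 2.0 (adjusted p = 2.27e-05) without replicate 2. Selp, P-selectin, and Mmrn1, multimerin, had 1.98 (adjusted p = 0.408) and 2.85 (adjusted p = 0.259), with the block 1.75 (adjusted p = 0.0108) and 2.54 (adjusted p = 0.00601), and without replicate 2 2.0 (adjusted p = 3.62e-06) and 2.90 (adjusted p = 2.89e-07). The summed level of the list was 14871, 1388 and 16857 CPM under C16, against 6407, 3800 and 6706 CPM under RE. It was higher under C16 in replicates 1 and 3 and lower in replicate 2.

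Primary granule genes mark promyelocytes. Of 14 tested 0 were called, and with the block 5 were higher and 2 lower (all genes: 15.7% higher, 18.5% lower). Mpo, myeloperoxidase, was at 1330, 5633 and 1072 CPM under C16, against 619, 3046 and 717 CPM under RE (0.87 (adjusted p = 0.554), and 0.86 (adjusted p = 0.00505) with the block). Ctsg, cathepsin G, had 0.71 (adjusted p = 0.465), and 0.61 (adjusted p = 0.00956) with the block. In both genes replicate 2 was the highest library of its group.

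Of 26 stem and early progenitor markers 3 were higher under C16 and 1 lower (all genes: 5.4% higher, 6.49% lower). With the block 11 were higher and 2 lower (all genes: 15.7% higher, 18.5% lower). Cd34, the sialomucin of early progenitors, was at 116, 125 and 119 CPM under C16, 50.7, 44.7 and 65.9 CPM under RE and 102, 87.8 and 112 CPM under DMSO (log2 change 1.16 ± 0.15, adjusted p = 0.00871 for C16 against RE). Lmo2 is the member described above with the HOXA cofactors. Hlf, a transcription factor of stem cells, was at 9.12, 15.6 and 12.6 CPM under C16, against 3.98, 7.87 and 3.85 CPM under RE (log2 change 1.25 ± 0.34, adjusted p = 0.0495), and the lower one, Txnip, an inhibitor of thioredoxin, was at 145, 92.4 and 144 CPM under C16, against 187, 248 and 204 CPM under RE (log2 change -0.74 ± 0.19, adjusted p = 0.0448). Hlf and Txnip were named to complete the count. The call of Cd34 held in each of the 9 fits that left out 1 library. That of Hlf was lost without any 1 of C16 replicates 1, 2 and 3, RE replicates 1 and 3 and DMSO replicates 1, 2 and 3. That of Txnip was lost without any 1 of C16 replicates 1 and 3, RE replicates 1, 2 and 3 and DMSO replicates 1, 2 and 3. Kit had -0.45 (adjusted p = 0.463), and without replicate 2 -0.83 (adjusted p = 3.49e-05). Runx1, a transcription factor of blood stem cells and a partner gene of the fusion from which AE9a derives, had -0.08 (adjusted p = 0.83).

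The 12 largest positive changes of C16 against RE, among called genes of at least 5 CPM without overlap, reached 3.66 on the log2 scale. Besides Adgrl4 and Hoxa7 they included Slc26a3, Tmem26, Hdac9, Dennd5b, Tfpi, Lysmd2, Gja1, Slc35f2 and Mmp2. They are not all rises over the solvent: C16 against DMSO gave 0.12 for Adgrl4 and -0.36 for Hoxa7. Slc26a3, a chloride and bicarbonate exchanger, was at 9.99, 3.54 and 7.87 CPM under C16, 0.561, 0.715 and 0.923 CPM under RE and 0.732, 0.95 and 1.18 CPM under DMSO (log2 change 3.27 ± 0.43, adjusted p = 0.00879 for C16 against RE). Tfpi, the tissue factor pathway inhibitor, was at 21.7, 34.3 and 21 CPM under C16, 6.73, 6.18 and 5.38 CPM under RE and 10.1, 13.5 and 12.2 CPM under DMSO (log2 change 2.07 ± 0.23, adjusted p = 0.00515). Gja1, the gap junction protein connexin 43, was at 35.8, 60.1 and 38.1 CPM under C16, against 10.4, 12.2 and 10.6 CPM under RE (log2 change 2.01 ± 0.31, adjusted p = 0.0118). Mmp2, a matrix metalloproteinase, was at 8.2, 6.16 and 8.78 CPM under C16, against 2.64, 2.41 and 1.47 CPM under RE (log2 change 1.83 ± 0.28, adjusted p = 0.0118). For Slc26a3, Tfpi, Gja1 and Mmp2 every C16 library also lay above every DMSO library. Other log2 changes were 2.59 for Tmem26, 2.33 for Hdac9, 2.29 for Dennd5b, 2.02 for Lysmd2 and 1.93 for Slc35f2. The calls of Slc26a3, Tfpi and Mmp2 held in each of the 9 fits that left out 1 library. Those of Gja1 and Slc35f2 were lost without RE replicate 1. That of Lysmd2 was lost without RE replicate 3. That of Tmem26 was lost without any 1 of C16 replicate 3 and RE replicates 1 and 2. That of Dennd5b was lost without any 1 of C16 replicates 1 and 3, RE replicates 1, 2 and 3 and DMSO replicates 1 and 3. That of Hdac9 was lost without any 1 of C16 replicates 1 and 3, RE replicates 1, 2 and 3 and DMSO replicates 1, 2 and 3.

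The 12 largest negative changes of C16 against RE ran from -5.34 to -2.82. Besides Epx, Prg2, Prg3 and Stfa2l1 they were Stfa2, Pga5, Padi3, Kcnn3, D7Ertd128e, Snhg11, Muc20 and Tgfa. Pga5, a pepsinogen, was at 0.82, 0.154 and 1.02 CPM under C16, 12.3, 10.3 and 9.5 CPM under RE and 1.58, 1.51 and 1.33 CPM under DMSO (log2 change -4.0 ± 0.53, adjusted p = 0.00879 for C16 against RE). Tgfa, a ligand of the epidermal growth factor receptor, was at 1.02, 0.616 and 1.28 CPM under C16, 5.27, 7.74 and 7.82 CPM under RE and 2.48, 1.79 and 3.78 CPM under DMSO (log2 change -2.82 ± 0.38, adjusted p = 0.00909). For Pga5 and Tgfa the RE libraries lay above every DMSO library. Muc20, a mucin, was at 3.89, 1.95 and 4.28 CPM under C16, against 14.4, 38 and 21.2 CPM under RE (log2 change -2.86 ± 0.43, adjusted p = 0.0111), and Kcnn3, a calcium-activated potassium channel, at 1.49, 2.77 and 0.696 CPM under C16, against 10.2, 37.7 and 10.8 CPM under RE (log2 change -3.56 ± 0.68, adjusted p = 0.0204). Padi3, an arginine deiminase, had -3.75 (adjusted p = 0.016), D7Ertd128e -3.40 (adjusted p = 0.0433) and Snhg11 -3.10 (adjusted p = 0.0277). Stfa2 was at 0.461, 1.03 and 0.214 CPM under C16, against 3.93, 61.7 and 4.34 CPM under RE (log2 change -5.34 ± 1.34, adjusted p = 0.0414), and its log2 change was -3.58 (adjusted p = 6.91e-05) without replicate 2. The calls of Pga5, Tgfa and Muc20 held in each of the 9 fits that left out 1 library. That of Padi3 was lost without any 1 of C16 replicate 1 and RE replicate 1. That of Kcnn3 was lost without any 1 of C16 replicates 1 and 3. That of D7Ertd128e was lost without any 1 of C16 replicates 1, 2 and 3, RE replicates 1 and 3 and DMSO replicates 1 and 3. That of Snhg11 was lost without any 1 of C16 replicates 1 and 3, RE replicates 1, 2 and 3 and DMSO replicates 1 and 3. That of Stfa2 was lost without any 1 of the 9 libraries.

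The same contrast in AE9a cells shares no library with the one in WT cells, and the difference between the genotypes was tested as an interaction over all 18 libraries. It was called for 3702 of 15809 genes (23.4%), of which 2114 had a higher change in WT cells (13.4%) and 1588 a lower one (10%). Leaving out each of the 18 libraries in turn moved the count by over 1.5 times for 3 of them. Without C16 replicate 1 of the WT cells 2303 were called, without C16 replicate 3 2298, and without C16 replicate 2 7185. With the block 6758 were called, and 8622 without replicate 2 of the WT cells. The HOXA difference between C16 and RE was larger in AE9a cells for 2 of 7 genes tested (all genes: 10% lower in WT cells). In fits that left out 1 of the 18 libraries this count was 0 to 3. Hoxa6 had a difference of 0.03 (adjusted p = 0.953). Hoxa7 changed by 2.31 in WT cells and 3.91 in AE9a cells, a difference of -1.61 ± 0.48 (adjusted p = 0.0281). Hoxa3 changed by 1.15 in WT cells and 2.76 in AE9a cells, a difference of -1.62 ± 0.47 (adjusted p = 0.0232). The call of Hoxa7 was lost without any 1 of WT C16 replicates 1 and 3, WT RE replicates 1 and 3, AE9a C16 replicate 3 and AE9a RE replicates 2 and 3, and that of Hoxa3 without any 1 of WT C16 replicate 1, WT RE replicate 3, AE9a C16 replicate 3 and AE9a RE replicates 2 and 3. Of 38 DNA replication genes 23 had a lower change in WT cells than in AE9a cells and 0 a higher one. Of 37 mitosis genes the counts were also 23 and 0 (all genes: 10% lower, 13.4% higher). The list median log2 changes were 0.35 in WT cells against 1.20 in AE9a cells for replication, and 0.22 against 1.31 for mitosis. With the block these counts were 37 lower and 1 higher for replication and 36 and 0 for mitosis. Of all 15809 genes 3456 were lower and 3302 higher with the block. The 23 replication genes became 7 without WT C16 replicate 1, 8 without WT C16 replicate 3, 9 without AE9a RE replicate 3, 11 without any 1 of WT RE replicate 2 and AE9a RE replicate 2, 13 without AE9a C16 replicate 1, 14 without AE9a C16 replicate 3, 15 without AE9a C16 replicate 2 and 37 without WT C16 replicate 2. The 23 mitosis genes became 7 without any 1 of WT C16 replicates 1 and 3, 8 without AE9a RE replicate 3, 9 without WT RE replicate 2, 10 without AE9a RE replicate 2, 11 without AE9a C16 replicate 3, 12 without any 1 of AE9a C16 replicates 1 and 2, 15 without AE9a RE replicate 1 and 36 without WT C16 replicate 2. Mcm6 changed by 0.63 in WT cells and 1.46 in AE9a cells, a difference of -0.84 ± 0.22 (adjusted p = 0.0163). Top2a changed by 0.30 in WT cells and 1.27 in AE9a cells, a difference of -0.98 ± 0.33 (adjusted p = 0.043). The call of Mcm6 was lost without any 1 of WT C16 replicates 1 and 3. Among the fits that left out 1 library, that of Top2a held only without WT C16 replicate 2, WT RE replicates 1 and 3 and WT DMSO replicates 1 and 2.

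Mast cell and erythroid genes differed between genotypes in the other direction, and monocyte genes did not. The change of 12 of 17 mast cell markers and 11 of 23 erythroid markers was higher in WT cells, against 13.4% of all genes. It was lower in WT cells for 0 mast cell and 2 erythroid markers (all genes: 10% lower). In fits that left out 1 of the 18 libraries the 12 became 9 to 14 and the 11 became 9 to 15. A higher change means C16 less far below RE, not below it or further above it. The list medians were -0.71 in WT cells against -3.16 in AE9a cells and -0.50 against -2.88. C16 replicate 3 of the AE9a cells stood apart in these genes. In the interferon genes Oas2, Oas3, Zbp1 and Rigi replicate 3 of the AE9a cells was the lowest library under each treatment, and furthest below under C16. In AE9a cells Hdc was at 106, 125 and 31.9 CPM under C16, against 2763, 2786 and 2836 CPM under RE. Oas2 was at 135, 119 and 12.6 CPM under C16, 205, 199 and 108 CPM under RE and 169.5, 160 and 80.8 CPM under DMSO. Without AE9a C16 replicate 3, an alternative chosen after seeing the data, 12 mast cell and 11 erythroid markers had a higher change in WT cells. The AE9a medians were then -2.82 and -2.39. Hdc changed by -0.91 in WT cells and -4.99 in AE9a cells, a difference of 4.07 ± 0.59 (adjusted p = 0.000394), or 3.67 (adjusted p = 0.000178) without that library. Kit changed by -0.45 in WT cells and -2.47 in AE9a cells, a difference of 2.01 ± 0.44 (adjusted p = 0.00542). Car1 changed by 1.53 in WT cells and -5.51 in AE9a cells, a difference of 7.02 ± 0.76 (adjusted p = 4.57e-05), but Car1 was low in WT cells, at 1.54, 0.873 and 1.12 CPM under C16 and 0.393, 0.325 and 0.489 CPM under RE. For monocyte markers 10 of 26 had a lower change in WT cells and 0 a higher one (all genes: 10% lower, 13.4% higher). With the block 15 had a lower one (all genes: 3456 of 15809 lower). The 10 became 5 without any 1 of WT C16 replicate 1 and AE9a RE replicate 3 and 6 without any 1 of WT C16 replicate 3, WT RE replicate 2, AE9a C16 replicate 3 and AE9a RE replicate 2. Adgre1 changed by -1.85 in WT cells and 0.26 in AE9a cells, a difference of -2.11 ± 0.30 (adjusted p = 0.000324). Tlr2 changed by -1.58 in WT cells and 0.68 in AE9a cells, a difference of -2.28 ± 0.33 (adjusted p = 0.000443). The calls of Hdc, Kit, Car1, Adgre1 and Tlr2 held in each of the 18 fits that left out 1 library. Ribosome assembly genes had a called difference in 1 of 35 members, against 23.4% of all genes, with medians of 0.77 in WT cells and 0.91 in AE9a cells. The 1 became 3 without WT RE replicate 2 and 22 without WT C16 replicate 2. Interferon genes had a called difference in 1 of 29 members, with medians of -0.96 in WT cells and -0.39 in AE9a cells. With the block 9 had a lower change in WT cells (all genes: 3456 of 15809 lower). Without AE9a C16 replicate 3 there were 4 (all genes: 1096 of 16260 lower), and the AE9a median was 0.02. That last fit kept AE9a RE replicate 3, which was low in Oas2 as well, so its AE9a groups were not balanced. The interferon count was 0 without any 1 of the 18 libraries other than AE9a C16 replicate 3, WT C16 replicate 2 and WT RE replicate 3. Eosinophil markers had 3 of 10, with medians of -2.39 in WT cells and -1.80 in AE9a cells. With the block 1 was higher and 5 lower in WT cells (all genes: 3302 of 15809 higher, 3456 lower). Without the block 1 was higher and 2 lower (all genes: 13.4% higher, 10% lower). The 2 became 1 without any 1 of WT C16 replicates 1 and 3, AE9a C16 replicate 3 and AE9a RE replicate 3 and 4 without WT C16 replicate 2, and the 1 became 0 without any 1 of WT C16 replicate 1 and AE9a C16 replicate 3. A difference that was not called is not shown to be absent.

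**Figure D5:**
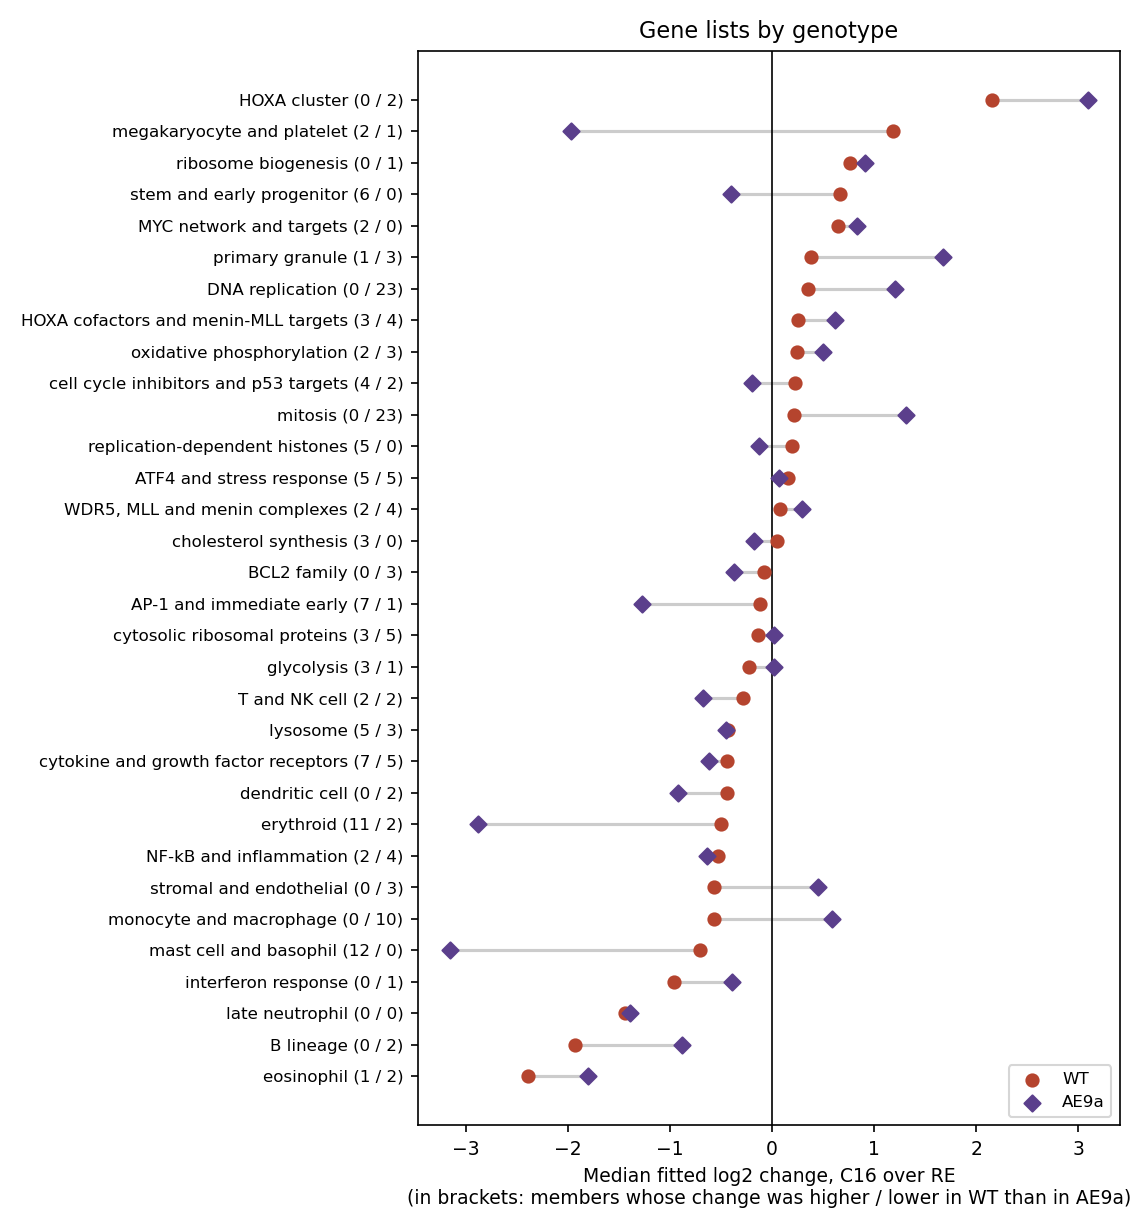
Median fitted log2 change, C16 over RE, over the members of each list tested in WT cells, for WT (circles) and AE9a cells (diamonds), with the number of members whose change was higher and lower in WT in brackets. Ribosome assembly genes lie close together at 0.77 in WT and 0.91 in AE9a cells, and mast cell genes far apart at -0.71 and -3.16.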

How the data were processed

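The deposited values are raw counts of fragments per gene for 41079 genes on GRCm39, in 1 table a genotype; every column matched 1 sample, and gene positions come from those tables. Per the submitters' processing notes reads were aligned and counted with, among other tools, HISAT2 2.1.0 and featureCounts 2.0.3 (with fastp 0.23.2 and FastQC 0.11.9 also listed). The headers of the deposited tables instead give version 1.6.2, which counted read pairs over exons without regard to strand, so overlapping and antisense genes may share fragments. Which version was used is not given in the sources used here.

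The 9 WT libraries were fitted together with edgeR 4.0.16 (R 4.3.3): filterByExpr, TMM, quasi-likelihood F tests, Benjamini-Hochberg adjustment, threshold 0.05. SE is that of the fitted log2 change. The genotype difference was fitted over 18 libraries. Alternatives were DESeq2 1.42.0, limma-voom (limma 3.58.1), other scalings and filters, a replicate block, and leaving out libraries. The edgeR fits with and without the block, DESeq2 and limma-voom were tested on simulated data. Of these DESeq2 alone had a share of false calls over the limit set for the test, which was looser than the threshold of 0.05. The simulated libraries shared no replicate effect, so the test does not cover the replicate structure seen here.

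Deviations of same-numbered C16 and RE libraries from their group means correlated at 0.56, 0.74 and 0.66 for numbers 1, 2 and 3, which counted as pairing. C16 1 and RE 3 correlated at 0.53, C16 3 and RE 1 at 0.58, and the same-number value was 0.12 without replicate 2, so mostly replicate 2 carries it.

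The genes named are the 12 largest changes in each direction (adjusted p under 0.05, at least 5 CPM, no overlap), the 4 members of each list with the smallest blocked p, genes of the study's design, and those the text says complete a count or were chosen for a window; a few genes these rules name are not reported here. The comparison, the 33 gene lists and these rules were chosen with earlier results of these data known.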

Additional observations from a re-analysis of the deposited data

Results flagged for a closer look

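For the genes below, the log2 change of C16 over RE differed between WT and AE9a cells by the interaction test over 18 libraries (edgeR, adjusted p under 0.05). Values are the WT change minus the AE9a change, and whether replicate 2 of the WT cells or any other cause has a part in them was not tested. 
Where the fitted change was negative in WT cells and positive in AE9a cells, the difference was -3.39 for Snhg11, -2.28 for Tlr2, -2.17 for Alox15, -2.11 for Adgre1, -1.95 for Cx3cr1, -1.41 for Mpeg1, -1.21 for Nfkbia, -0.76 for Cd68 and -0.55 for Wdr5. Where it was negative in both and lower in WT cells, it was -2.26 for Epx, -1.83 for Cd14, -1.52 for Bmf and -0.65 for Bcl2l11. Where it was positive in both and smaller in WT cells, it was -2.03 for Flt3, -1.62 for Hoxa3, -1.61 for Hoxa7, -1.22 for Sox4, -0.98 for Top2a, -0.84 for Mcm6, -0.76 for Tcf4, -0.72 for Tfrc and -0.56 for Pola1. Where it was negative in both and less so in WT cells, it was 0.70 for Ndufa1, 0.81 for Nfkbie, 1.39 for Mitf, 1.41 for Runx1, 2.01 for Kit, 2.12 for Txnip, 2.65 for Il1rl1, 2.81 for Ank1, 3.12 for Rhag and 4.07 for Hdc. Where it was positive in WT cells and negative in AE9a cells, it was 0.46 for Ash2l, 0.85 for Asns, 0.89 for Rpl21, 3.06 for Dennd5b and 7.02 for Car1. Where it was positive in both and larger in WT cells, it was 0.74 for Sesn1, 1.48 for Mmp2 and 1.62 for Tfpi. In fits that left out 1 of the 18 libraries, the calls of Hoxa3, Hoxa7, Flt3, Wdr5, Rpl21, Mcm6, Top2a, Mmp2, Epx, Cd14, Cd68, Bmf, Bcl2l11, Il1rl1 and Rhag were lost without at least 1 library, and the others held.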

How the results depend on the processing

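The number of genes called for C16 against RE was 1789 in the fit without a replicate block over the 9 WT libraries. With the replicate block it was 5145, and 1976 with the block over the C16 and RE libraries alone, which without the block gave 281. Without replicate 2 it was 6737, or 6592 with the block; with the block it was 908 without replicate 1 and 914 without replicate 3. No low-count filter gave 920, DESeq2 3172, limma-voom 1585, RLE scaling 1804, upper-quartile scaling 1816 (713 higher, 1103 lower) and at least 1 CPM in 3 libraries 2188. The count of DESeq2 is liberal, as it made too many false calls in simulated data. Leaving out 1 library gave 302 to 2161. For C16 against DMSO the 467 calls became 3646 with the block, 6341 without replicate 2 and 0 to 1329 without 1 library. For RE against DMSO the 4 became 77, 1219 and 0 to 6. For the genotype difference the 3702 became 6758 with the block, 8622 without WT replicate 2, 2298 to 7185 without 1 of the 18 libraries, and 2760 without AE9a C16 replicate 3 (leaving out AE9a or WT DMSO libraries was chosen after seeing the data). Except where the construction shows it (fewer libraries or genes), the cause was not tested. Some uncalled genes changed sign. Flt3 had −0.26 without replicate 2, −0.23 with the block as well, and −0.13 to 0.98 without 1 library. Wdr5 had 0.0052 with the block without replicate 3 and −0.24 to 0.025 without 1 library. Without 1 library the ranges were −0.33 to 0.071 for Men1, −0.013 to 0.65 for Ccnb1, −0.28 to 2.01 for Mpo, −0.063 to 1.26 for Ctsg and −0.22 to 0.11 for Runx1. Genes with few fragments, such as the HOXA and B lineage genes, are limited by counting error as well as by replicates.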

Other observations

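Several other lists had few calls for C16 against RE in WT cells in the fit without the block. Their called members were named after their values were seen. Of all genes 5.4% were higher and 6.49% lower, or 15.7% and 18.5% with the block. Of 28 genes of the ATF4 and stress response, 10 were higher and 5 lower with the block. Without it 3 were higher and 2 lower. The higher ones were Asns, asparagine synthetase, at 65.4, 75.5 and 63.8 CPM under C16, against 40.6, 47.1 and 43.4 CPM under RE (log2 change 0.64 ± 0.15, adjusted p = 0.0372), Psat1, of serine synthesis (log2 change 0.77 ± 0.20, adjusted p = 0.0465), and Hspa5, the chaperone of the endoplasmic reticulum (log2 change 0.39 ± 0.10, adjusted p = 0.0387). The lower ones were Trib3, a pseudokinase that restrains ATF4, at 4.87, 6.01 and 4.82 CPM under C16, against 11.8, 13.8 and 11.2 CPM under RE (log2 change -1.23 ± 0.15, adjusted p = 0.00724), and Slc7a11, the cystine transporter (log2 change -0.99 ± 0.18, adjusted p = 0.0191). The call of Trib3 held in each of the 9 fits that left out 1 library. That of Slc7a11 was lost without any 1 of C16 replicate 3 and RE replicates 1 and 2. That of Asns was lost without any 1 of C16 replicates 1, 2 and 3, RE replicates 1, 2 and 3 and DMSO replicate 3. That of Psat1 was lost without any 1 of C16 replicates 1, 2 and 3, RE replicates 1, 2 and 3 and DMSO replicates 1 and 3. That of Hspa5 was lost without any 1 of C16 replicates 1 and 3, RE replicates 1, 2 and 3 and DMSO replicates 1, 2 and 3. Of 27 cell cycle inhibitors and p53 targets 2 were higher and 0 lower, Sesn1, a sestrin, at 46.1, 35.1 and 45.5 CPM under C16, against 23, 21.2 and 25 CPM under RE (log2 change 0.87 ± 0.15, adjusted p = 0.0156), and Trp53, which encodes p53 (log2 change 0.42 ± 0.10, adjusted p = 0.0402). The call of Sesn1 was lost without any 1 of C16 replicates 1 and 3 and RE replicate 1. That of Trp53 was lost without any 1 of the 9 libraries. With the block 11 of these 27 genes were higher and 1 lower.

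In 3 further lists, and also among 24 genes of cholesterol synthesis, 1 gene was lower and 0 higher. Klf2, a transcription factor of quiescence, was the gene among 22 of AP-1 and the immediate early response (log2 change -1.50 ± 0.34, adjusted p = 0.03), Aldoc, an aldolase, among 20 of glycolysis (log2 change -1.32 ± 0.35, adjusted p = 0.0476), and Il3ra, the IL-3 receptor chain, among 20 cytokine and growth factor receptors (log2 change -0.77 ± 0.12, adjusted p = 0.0119). The call of Il3ra was lost without RE replicate 1. That of Klf2 was lost without any 1 of C16 replicates 1 and 3, RE replicates 1 and 2 and DMSO replicate 1. That of Aldoc was lost without any 1 of the 9 libraries. With the block 11 of the receptors were lower and 3 higher (all genes: 18.5% lower, 15.7% higher). In that fit 7 AP-1 and immediate early genes were lower and 0 higher, and 6 glycolysis genes lower and 1 higher. The cholesterol synthesis genes then had 2 lower and 2 higher. Of 20 replication-dependent histone genes, 8 T and NK cell markers and 8 stromal and endothelial markers 0 were called, and with the block 0 histone genes, 1 higher and 1 lower T and NK cell marker and 1 lower stromal marker. Of 16 dendritic cell markers 1, Tcf4, was higher and 0 lower, but the list's median log2 change was -0.44. With the block 2 were higher and 5 lower (all genes: 15.7% higher, 18.5% lower). Without replicate 2, 4 were higher and 8 lower (all genes: 22.9% and 21.4%). In all 3 pairs 2 were higher and 9 lower, against 4353 and 4901 of 15046 genes.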
